A study of Mus musculus with 24 samples.

Results

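The genes described here are 33 markers of Kupffer cells and other macrophages, read in whole liver of C57BL/6 mice. They were chosen by symbol, and all 33 were found among the 46093 symbols of both count tables, 1 table for each sex. The study compared wild type mice (WT) with mice labelled as lacking Cyp2b9, Cyp2b10 and Cyp2b13 (Cyp2b-null), cytochrome P450 enzymes of the liver, and asked what Cyp2b contributes to obesity caused by diet. Mice of each genotype and sex were kept on normal diet (ND) or, for 10 weeks, on a high-fat diet (HFD) of 60% fat, which gave 8 groups of 3 libraries. Within each sex the groups were thus WT on ND, WT on HFD, Cyp2b-null on ND and Cyp2b-null on HFD. The labels give no age, do not say how the deletion was made, and do not say whether the libraries of a group are separate animals, so p-values measure only the spread between these libraries. Male RNA was extracted with RNeasy Plus Universal and built into TruSeq Total RNA libraries, and female RNA with Trizol and NEB Next Ultra. Sex and kit therefore cannot be told apart, each sex was fitted alone, and no test was made between them.

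Kupffer cells are the macrophages that live in the liver sinusoids, where they take up particles, bacteria, old red cells and lipoproteins from portal blood. In mice they are recognised by a set of surface and secreted proteins, among them the lectin Clec4f, which other macrophages carry little of. When a fatty liver loses resident cells, monocytes drawn in by chemokines can replace them, and macrophages beside lipid-laden hepatocytes take on a lipid-associated state marked by Trem2, Gpnmb, Cd9 and Lgals3. The 33 genes were grouped by role into 5 resident markers (Clec4f, Vsig4, Timd4, Cd5l and Marco), those 4 lipid-associated genes, 7 pan-macrophage identity genes, the 3 chains of complement C1q, 5 scavenger and pattern receptors, 5 signalling adaptors and phagocyte effectors, and 4 genes of monocyte recruitment. In whole liver, a different number of cells and a different amount of RNA per cell cannot be told apart.

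The promoters of 3 resident markers and of Trem2 hold a core recognised by PU.1, the factor of macrophage identity that the member Spi1 encodes. RefSeq windows (GRCm38.p6) from 250 bases before to 50 after the start site were matched for 25 of the 33 genes. The letters GAGGAA, searched on both strands, occurred in 13 of the 25, against 28.3% of 32851 promoters of the same length. By role these were 3 of 5 resident markers, 1 of 4 lipid-associated genes, 3 of 4 identity genes with a window, both C1q chains with one (C1qb and C1qc), 1 of 3 receptors, 2 of 4 effectors and 1 of 3 recruitment genes. The AP-1 site TGACTCA occurred in 3 of the 25, Gpnmb, Cd68 and Folr2, against 5.2% of all promoters. Folr2 has 2 windows and only the second matched, whereas that share is per promoter. The E-box CACGTG, which the lysosomal regulators of the MiT family recognise, occurred in 0 of the 25, against 7.15%. No match to one motif overlapped a match to another in these windows, and a match is a description of the letters, not a bound site. The lines below give the 250 bases before the start site of 5 genes, 5′ to 3′ on the gene's own strand, with the GAGGAA core or its complement TTCCTC in capitals; Timd4 is shown as a resident marker without a match.
Vsig4, chrX:96293439-96293688, minus strand: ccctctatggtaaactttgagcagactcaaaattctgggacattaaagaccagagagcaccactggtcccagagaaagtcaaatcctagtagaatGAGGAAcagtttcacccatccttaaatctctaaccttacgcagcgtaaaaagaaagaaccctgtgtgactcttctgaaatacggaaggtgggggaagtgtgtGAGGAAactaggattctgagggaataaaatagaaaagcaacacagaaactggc
Cd5l, chr3:87357631-87357880, plus strand: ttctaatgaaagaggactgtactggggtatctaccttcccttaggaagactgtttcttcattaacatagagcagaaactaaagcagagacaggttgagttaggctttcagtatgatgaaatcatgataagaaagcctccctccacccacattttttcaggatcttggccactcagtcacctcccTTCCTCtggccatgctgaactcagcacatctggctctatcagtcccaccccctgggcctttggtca
Marco, chr1:120505025-120505274, minus strand: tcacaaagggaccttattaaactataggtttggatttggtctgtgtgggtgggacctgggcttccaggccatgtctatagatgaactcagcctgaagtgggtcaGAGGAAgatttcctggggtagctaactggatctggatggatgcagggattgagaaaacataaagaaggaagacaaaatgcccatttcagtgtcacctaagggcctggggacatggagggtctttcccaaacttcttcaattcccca
Trem2, chr17:48346151-48346400, plus strand: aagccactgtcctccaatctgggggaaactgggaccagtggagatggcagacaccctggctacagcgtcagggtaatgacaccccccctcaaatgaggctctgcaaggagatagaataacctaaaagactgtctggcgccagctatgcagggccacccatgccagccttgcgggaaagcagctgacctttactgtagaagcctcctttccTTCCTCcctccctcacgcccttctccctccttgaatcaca
Timd4, chr11:46810549-46810798, plus strand: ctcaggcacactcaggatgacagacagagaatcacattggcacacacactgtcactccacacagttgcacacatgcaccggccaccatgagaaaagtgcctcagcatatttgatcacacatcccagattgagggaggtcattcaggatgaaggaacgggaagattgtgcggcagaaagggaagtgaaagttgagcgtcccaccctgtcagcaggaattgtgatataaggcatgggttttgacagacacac

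Library totals were 8.28 M to 20.18 M counts in males and 2.01 M to 2.66 M in females, and the 33 genes together took 0.0322% to 0.0802% of a male and 0.0384% to 0.138% of a female library. In females the targeted genes followed the titles, since Cyp2b13 had 565 to 1138 counts in each WT library and 0 in each Cyp2b-null library, although 6 of these libraries carry a second genotype label that goes against the title used here. In males the targeted genes were low and gave a mixed picture (CPM, counts scaled to library size; SD, n = 3). On ND, Cyp2b13 averaged 2.72 ± 0.689 CPM in WT and 2.84 ± 1.92 CPM in those labelled null. Cyp2b10 on ND was lower without overlap in those labelled null, at 0.535, 0.806 and 0.981 CPM against 8.39, 3.68 and 2.56 CPM, but overlapped on HFD. Cyp2b9 averaged 0.215 CPM in WT and 2.88 CPM in those labelled null on ND, and 22.5 and 3.81 CPM on HFD. These groups are therefore called males labelled Cyp2b-null or labelled nulls. Among males, library 1 of the ND group labelled null was unlike the rest and is called the divergent library: its median Spearman correlation to the other 11 was 0.8002, against 0.9654 or more for each of those, and 32% of its counts fell on mitochondrial genes, against at most 7.76%. Of 10 hepatocyte markers listed 9 were found under their symbols, and their summed level was 47407 CPM in that library and 73910 to 153956 CPM in the other 23, so hepatocyte genes were abundant in all 24. The first principal component of the female libraries (29.2% of their variance) parted 5 libraries, drawn from all 4 groups, from the other 7. That of the male libraries (54.7%) parted libraries 1 and 3 of the ND group labelled null from the rest. These sides are signs only, and the median Spearman correlation of library 3 to the other male libraries was 0.9654.

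High-fat feeding of females was the comparison in which the macrophage genes lay furthest from the other genes. In WT females 31 of the 33 had a fitted log2 difference above 0 (HFD minus ND), against 49.7% of the 11830 genes tested, with a median of 0.52. In Cyp2b-null females 27 of the 33 lay above 0, against 51.3%, with a median of 0.68. The medians over all genes tested were 0.00 and 0.01. The 33 include members too low to test (26 were tested), whereas the shares cover tested genes only. The untested members all lay above 0 in WT and on both sides of 0 in Cyp2b-null. The 2 members below 0 in WT, Cd9 and Aif1, were tested. Summed over the 33 genes, WT females went from 535, 391 and 763 CPM on ND to 619, 1086 and 669 CPM on HFD, and Cyp2b-null females from 621, 658 and 411 CPM to 760, 710 and 1275 CPM. The summed ranges overlapped in WT, and did not in Cyp2b-null, where the lowest HFD library stood above the highest ND library. The comparisons between genotypes in females gave medians of 0.05 on ND and 0.14 on HFD, with 19 and 21 of the 33 above 0 (47.4% and 49.1% of all genes). The interaction, the diet effect in Cyp2b-null minus that in WT, had a median of 0.08 and 19 of the 33 above 0 (51.4%). The untested members all lay above 0 between genotypes on ND and below 0 in the interaction.

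No single gene of the 33 passed the test in females as fitted. Of the 33, 26 had enough counts to be tested with edgeR's quasi-likelihood test, and 0 had an adjusted p below 0.05 in any of the 5 comparisons, where 0.127% (null minus WT, ND), 0.0169% (null minus WT, HFD), 0.0169% (HFD minus ND, WT), 0% (HFD minus ND, Cyp2b-null) and 0% (interaction) of all genes were called. DESeq2 called 0 of the 26 as well, and its totals over all genes are not given here. With no filter on low counts edgeR called Cd5l and Mpeg1 for diet in Cyp2b-null females, among 30 genes in all. At an unadjusted p below 0.05, 10 lay higher and 0 lower on HFD in Cyp2b-null females, where 2.36% of all genes lay higher and 2.44% lower. In WT females 3 lay higher (background 1.67%) and 0 lower (1.82%). Between genotypes these counts were 0 and 0 on ND (2.98% and 3.36%), and 1 and 0 on HFD (0.989% and 1.45%). The interaction gave 0 and 0 (1.34% and 1.55%). The 3 libraries of one group all lay above, or all below, those of the other for some genes. On HFD in Cyp2b-null females this held for 10 of the 33 upward (Cd5l, Vsig4, Csf1r, Aif1, Spi1, C1qc, Cd163, Folr2, Fcer1g and Ctss; background 6.18%) and for Cd9 downward (5.05%). In WT females it held for 4 upward (Marco, Lgals3, Mpeg1 and C1qa; 3.89%) and 0 downward (3.97%). Between genotypes it held for Aif1 upward (3.38%) and Mrc1 downward (3.59%) on HFD, and for 0 and 0 on ND (5.18% and 6.1%).

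Males showed less of a common direction. Of the 33, 22 lay above 0 on HFD in WT (51.9% of the 14873 genes tested), with a median of 0.19, and 22 in the labelled nulls (49.5%), with a median of 0.11. Null minus WT gave 23 above 0 on ND (53.7%), with a median of 0.16, and 25 on HFD (48.5%), with a median of 0.15. The interaction had 15 above 0 (46.5%) and a median of -0.09. The medians over all genes tested lay between -0.05 and 0.06. The 33 include Trem2, Gpnmb and Aif1, which were too low to test in males, whereas the shares cover tested genes only. Of the 33, 30 were tested, and 0 had an adjusted p below 0.05 with edgeR, where 0.0134% of all genes were called on ND between genotypes and 0% in the other 4 comparisons. At an unadjusted p below 0.05 the counts of members higher and lower were 1 and 1 between genotypes on ND (background 12.7% and 5.84%) and 0 and 0 on HFD (1.41% and 0.706%). They were 0 and 1 for diet in WT (3.61% and 2.88%) and 0 and 1 for diet in the labelled nulls (2.65% and 8.49%). The interaction gave 0 and 0 (1.44% and 3.21%). The 1 lower member was Cd9 each time. DESeq2 called it for diet in WT, among 77 genes in all where edgeR called 0. It called 0 members in the other 4 comparisons, for which its totals over all genes are not given here. Groups did not overlap between genotypes on ND for Trem2 and Msr1 upward (background 10.3%) and Cd9 downward (12.5%), and on HFD for 0 upward (4.67%) and Gpnmb downward (3.6%). With diet this held for Trem2 and Gpnmb upward (12.9%) and Cd9 downward (10.1%) in WT, and for Cd163 upward (6.37%) and Cd9 downward (5.72%) in the labelled nulls. Trem2 and Gpnmb were too low to test, while these shares cover tested genes only. Among tested members, 1 lay wholly higher between genotypes on ND, 0 lower on HFD and 0 higher with diet in WT.

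**Figure D1:**
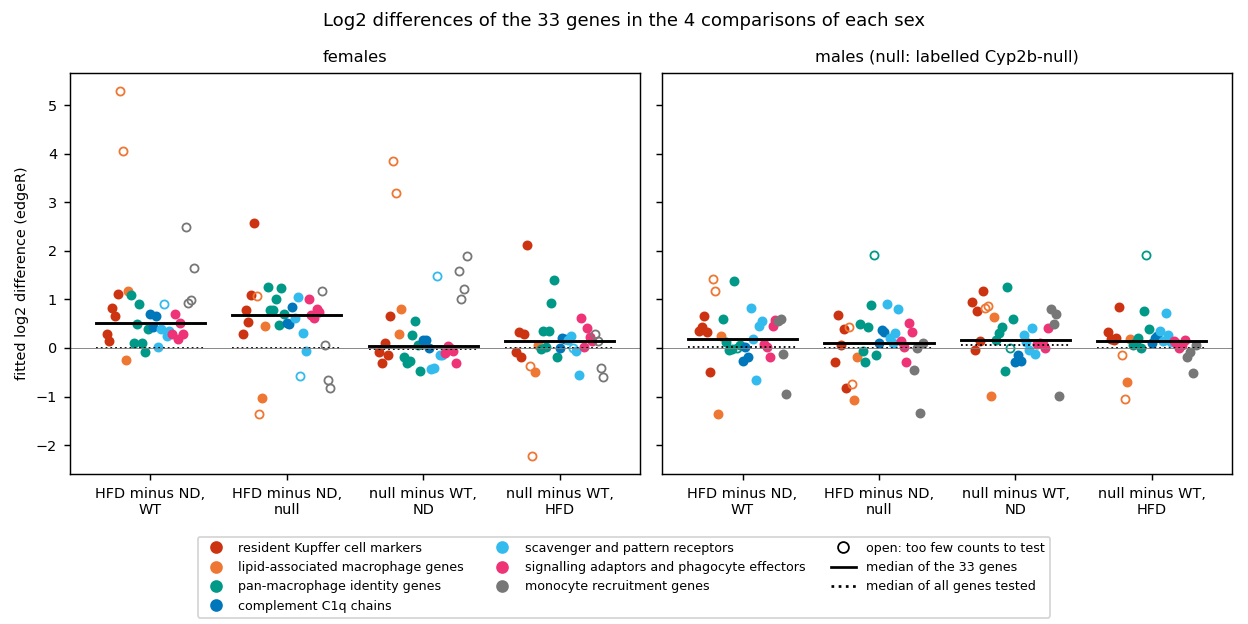
Fitted log2 differences (vertical axis) of the 33 genes in the 4 comparisons of females (left) and males (right). Each point is a gene coloured by role, open where counts were too low to test; the solid line is the median of the 33 genes and the dotted line that of all genes tested. The solid line lies at 0.52 and 0.68 for the female diet comparisons and between 0.05 and 0.19 in the other 6; open points far from 0 rest on a few counts.

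Among the resident markers Clec4f and Cd5l were abundant, and Vsig4, Timd4 and Marco less so. Per kilobase of merged exons, Clec4f ranked first of the 33 in males, at a median of 26.5 CPM per kb, and second in females, at 44.2. Cd5l, the secreted scavenger protein also called AIM, ranked next to it in both sexes, at 22.3 and 40.8 CPM per kb. Vsig4, the receptor that captures complement-coated bacteria, was at 9.1 and 13.5. Timd4, which binds phosphatidylserine on dying cells, and the scavenger receptor Marco were lower, at 2.12 and 1.93 CPM per kb in males and 3.76 and 5.25 in females.

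In Cyp2b-null females Cd5l and Vsig4 parted the diets. Cd5l stood at 72.9, 79.9 and 30.7 CPM on ND and at 97, 102 and 191 CPM on HFD, so the groups did not overlap (log2 difference 1.09 ± 0.40 SE, edgeR unadjusted p = 0.0181, adjusted p = 0.963). In WT females it went from 69, 47.4 and 86.1 CPM to 86.1, 160 and 74.6 CPM, which overlapped (0.66 ± 0.40). Vsig4 was at 20.4, 16.2 and 12.5 CPM in Cyp2b-null females on ND and at 34, 25.4 and 24.9 CPM on HFD, again without overlap (0.78 ± 0.36, unadjusted p = 0.0466). Its WT libraries overlapped widely, at 12.5, 16 and 31.9 CPM on ND and 19.7, 32.9 and 14.4 CPM on HFD (0.14 ± 0.36). The interaction was 0.43 ± 0.57 for Cd5l (edgeR unadjusted p = 0.461) and 0.64 ± 0.51 for Vsig4 (0.226). The diet effects of the genotypes were thus not shown to differ for either gene. Without library 3 of Cyp2b-null on HFD the Cd5l difference in Cyp2b-null females was 0.71.

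Clec4f and Timd4 showed no such gap. Its WT libraries held 112, 59.9 and 123 CPM on ND and 105, 162 and 92.7 CPM on HFD (0.28 ± 0.29, 95% interval -0.34 to 0.91). Its Cyp2b-null libraries held 90.7, 123 and 64.7 CPM on ND and 113, 107 and 119 CPM on HFD (0.28 ± 0.29). Timd4 was at 8.8, 2.5 and 5.46 CPM in WT females on ND and 8.11, 13.7 and 8.24 CPM on HFD (0.83 ± 0.47). In Cyp2b-null females it was at 5.64, 9.88 and 2.83 CPM on ND and 8.61, 7.4 and 10.2 CPM on HFD (0.53 ± 0.47). Groups overlapped for both genes in both genotypes.

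Marco in Cyp2b-null females rested on a single library, and in WT females it did not. The WT libraries had 6.02, 2 and 8.82 CPM on ND and 10, 15.8 and 11.5 CPM on HFD, without overlap (1.11 ± 1.17; 0.74 to 1.59 with single libraries left out). The Cyp2b-null libraries had 5.64, 18 and 3.64 CPM on ND and 10.2, 11.1 and 140 CPM on HFD (2.58 ± 1.04, unadjusted p = 0.0334). Library 3 of the Cyp2b-null females on HFD held 371 counts of Marco, and without it the difference was 0.24 ± 0.60 (unadjusted p = 0.693). Between genotypes on HFD, Marco differed by 2.11 ± 1.0 with that library and by -0.21 ± 0.59 without it.

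**Figure D2:**
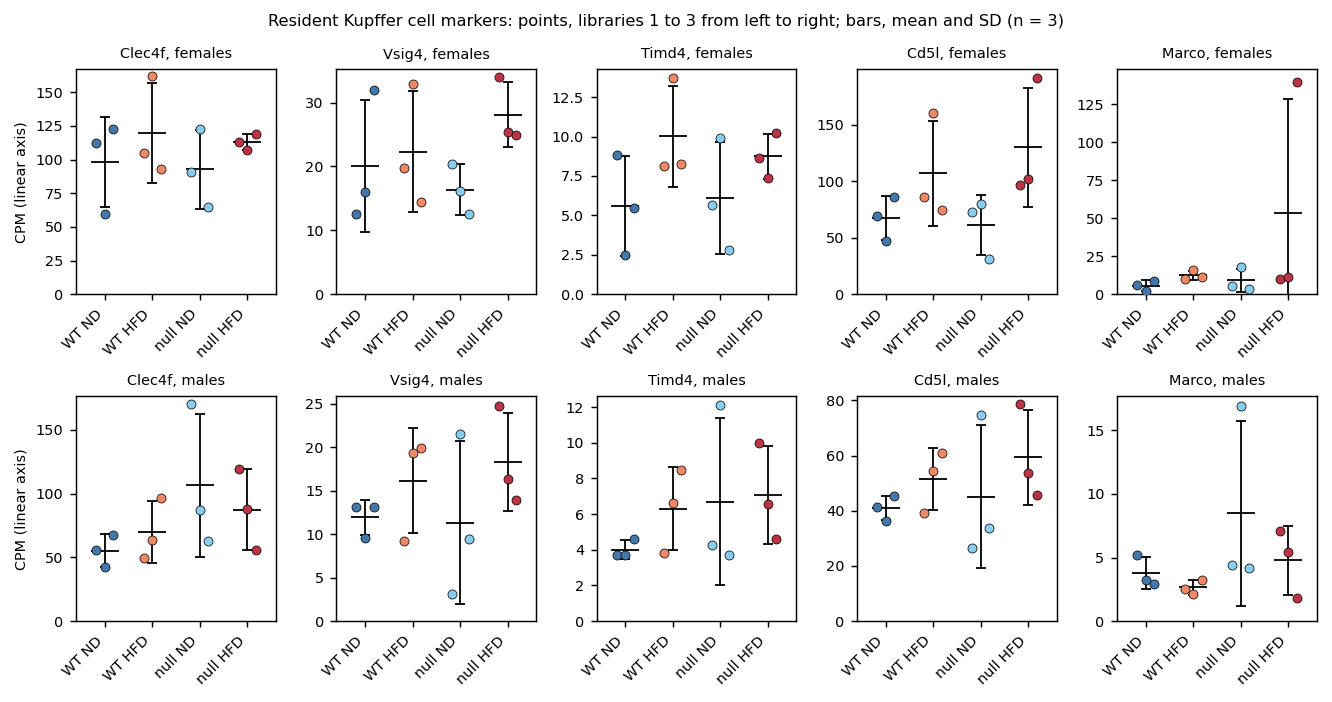
CPM (linear axis from 0) of the 5 resident markers in the 4 groups of females (top) and males (bottom); points are libraries 1 to 3 from left to right and black bars the mean and SD (n = 3), with the lower SD bar of Marco cut at 0. Cd5l and Vsig4 do not overlap between the diets in Cyp2b-null females, and library 3 of that HFD group stands at 140 CPM of Marco.

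In males the resident markers spread widely within the groups labelled Cyp2b-null. Clec4f was at 55.8, 42.4 and 67.8 CPM in WT on ND and at 170, 86.8 and 63 CPM in the labelled nulls on ND (0.94 ± 0.40, unadjusted p = 0.0379, adjusted p = 0.251). The value of 170 came from the divergent library, and without it the difference was 0.44. On HFD Clec4f was at 49.5, 63.3 and 96.9 CPM in WT and 119, 87.6 and 55.5 CPM in the labelled nulls, which overlapped (0.32 ± 0.40).

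Marco in males on ND was at 5.19, 3.25 and 2.9 CPM in WT and 4.42, 16.9 and 4.18 CPM in the labelled nulls (1.18 ± 0.58, unadjusted p = 0.064), and without library 2 of the latter the difference was 0.15. On HFD it was at 2.56, 2.14 and 3.26 CPM in WT and 7.09, 5.43 and 1.83 CPM in the labelled nulls. Cd5l was at 41.2, 36.4 and 45.2 CPM in WT males on ND and 39, 54.4 and 60.8 CPM on HFD. In the labelled nulls Cd5l was at 26.6, 74.6 and 33.9 CPM on ND and 78.5, 53.8 and 45.6 CPM on HFD. Both genes overlapped between the groups of each of the 4 comparisons.

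Vsig4 in males was at 13.1, 9.53 and 13.1 CPM in WT on ND and 9.18, 19.3 and 19.9 CPM on HFD, and in the labelled nulls at 3.08, 21.5 and 9.41 CPM on ND and 24.7, 16.3 and 13.9 CPM on HFD. Timd4 was at 3.72, 3.68 and 4.61 CPM in WT on ND and 3.84, 6.61 and 8.47 CPM on HFD, and in the labelled nulls at 4.28, 12.1 and 3.73 CPM on ND and 10, 6.59 and 4.62 CPM on HFD. For both genes the range within the ND group labelled null was wider than any distance between group means. The median over the 5 resident markers was 0.76 between genotypes on ND, 0.21 on HFD, 0.34 for diet in WT and 0.07 for diet in the labelled nulls; in females it was -0.09, 0.28, 0.66 and 0.78. Single libraries turned several of these. Without library 2 of the labelled nulls on ND the male resident median was -0.04 between genotypes on ND and 0.84 for diet in the labelled nulls, and without library 1 of the labelled nulls on HFD it was -0.04 between genotypes on HFD and -0.27 for diet in the labelled nulls. Without library 3 of WT on HFD it was 0.17 for diet in WT. In females the diet medians were 0.40 in Cyp2b-null without library 3 of HFD and 0.26 in WT without library 2 of HFD. Between female genotypes it was -0.11 on HFD without that same Cyp2b-null library, and on ND it ran from -0.34 without library 2 of Cyp2b-null to 0.18 without its library 3.

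The medians of the 4 lipid-associated genes in males were 0.73 between genotypes on ND, -0.43 on HFD, 0.72 for diet in WT and -0.47 for diet in the labelled nulls. In females, with groups at 0 set to a bound where the other group had more than 3 counts, they were 0.71, -0.44, 1.02 and -0.29 in the same order (1.99 and 2.61 in place of 0.71 and 1.02 as fitted). Between genotypes on ND, Gpnmb had 3 counts against 0, so it had no bound and kept its fitted 3.18 within the 0.71. Each of these medians rests on Cd9, Lgals3 and a pair of genes with few counts. Trem2, the lipid receptor of that state, and Gpnmb, a lysosomal glycoprotein, were near the limit of detection in both sexes. Trem2 had 3, 1 and 3 counts in WT males on ND and 9, 3 and 16 on HFD, and 2, 9 and 6 counts in the labelled nulls on ND and 7, 5 and 8 on HFD. In females it had 0, 0 and 0 counts in WT on ND and 8, 7 and 0 on HFD, and 3, 0 and 2 counts in Cyp2b-null on ND and 1, 5 and 5 on HFD. With 3 counts over the WT ND group as the floor (0.458 CPM), its WT HFD mean of 2.0 CPM was at least 4.35-fold higher, though library 3 of that HFD group had 0 counts. That floor covers counting error only. In males the Trem2 groups that did not overlap on ND were parted by 0.259 CPM in WT against 0.268 CPM in the labelled nulls. Gpnmb had at most 5 counts in any library, and neither gene passed the low-count filter in either sex, so neither was tested.

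Cd9, a tetraspanin that macrophages share with other cell types of the liver, had the smallest p of the list in males. WT males held 19.6, 18.2 and 14.6 CPM on ND and 6.32, 9.82 and 4.53 CPM on HFD, so every HFD library lay below every ND library (-1.35 ± 0.34, edgeR unadjusted p = 0.00176, adjusted p = 0.405). DESeq2 called that difference (-1.37, adjusted p = 0.0335, among 77 genes), and edgeR called it when the divergent male library was left out (-1.36 ± 0.26, adjusted p = 0.0295, among 109 genes). Males labelled Cyp2b-null held 5.08, 11.3 and 9.68 CPM on ND and 4.84, 3.56 and 4.04 CPM on HFD, also without overlap (-1.07 ± 0.34, unadjusted p = 0.00883, adjusted p = 0.434). On ND the labelled nulls lay below WT (-0.99 ± 0.33, unadjusted p = 0.0117, adjusted p = 0.213), again without overlap. The ND groups of the labelled nulls and of WT each serve 2 of these comparisons, so the 3 values are not independent. Each is below 0 whichever single library is left out, with ranges of -1.69 to -1.13, -1.33 to -0.84 and -1.25 to -0.74.

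Female Cd9 gave a less even picture. In Cyp2b-null females it was at 11.7, 21.6 and 12.1 CPM on ND and 6.65, 8.79 and 6.79 CPM on HFD, without overlap (-1.03 ± 0.58, unadjusted p = 0.101). In WT females it was at 4.17, 4.49 and 27.7 CPM on ND and 8.5, 12.1 and 10.7 CPM on HFD (-0.24 ± 0.57). Library 3 of the WT ND group alone set that sign, and without it the difference was 1.25 ± 0.42. Without that library Cyp2b-null females on ND lay above WT by 1.79 ± 0.41 (adjusted p = 0.228), against 0.29 ± 0.56 with it.

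Lgals3, galectin-3, was at 5.56, 2 and 4.2 CPM in WT females on ND and 10.4, 7.5 and 9.07 CPM on HFD, without overlap (1.18 ± 0.48, unadjusted p = 0.0266, adjusted p = 1). In Cyp2b-null females it was at 4.78, 11.7 and 4.45 CPM on ND and 5.87, 9.71 and 12.8 CPM on HFD, which overlapped (0.45 ± 0.45). Male Lgals3 was at 4.07, 2.6 and 3.16 CPM in WT on ND, 3.39, 3.79 and 4.48 CPM in WT on HFD, 8.83, 4.35 and 2.42 CPM in the labelled nulls on ND and 5.01, 5.79 and 2.5 CPM in the labelled nulls on HFD. In males the Lgals3 ranges overlapped in all 4 comparisons, in 3 of which Cd9 did not overlap. Cd9 gave more counts than Lgals3 in 3 of the 4 male groups, the exception being the labelled nulls on HFD (168 of Cd9 and 180 of Lgals3). The male sum of the 4 genes was 21 ± 3.01 CPM in WT on ND, 11.6 ± 2.23 on HFD, 14.5 ± 1.87 in the labelled nulls on ND and 9.22 ± 1.66 on HFD (SD, n = 3).

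**Figure D3:**
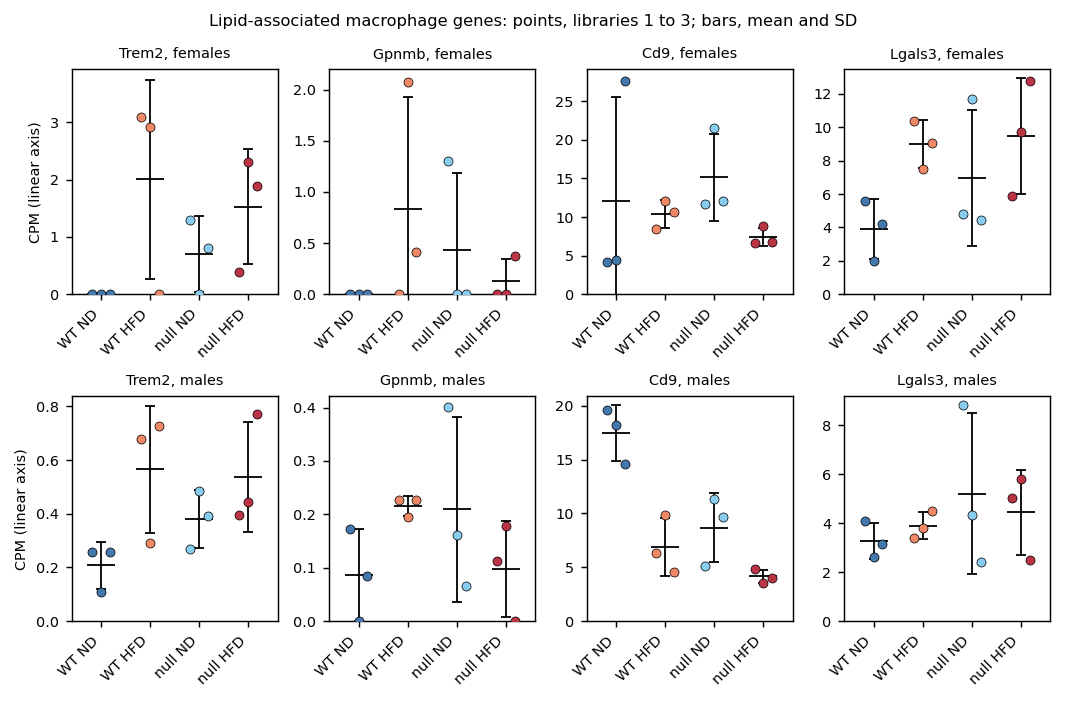
CPM (linear axis from 0) of the 4 lipid-associated genes in the 4 groups of females (top) and males (bottom); points are libraries 1 to 3 and black bars the mean and SD (n = 3). In males Cd9 stands at 14.6 to 19.6 CPM in WT on ND and at 3.56 to 11.3 CPM in the other 3 groups, and Trem2 and Gpnmb stay below 1 CPM in each male library.

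The pan-macrophage identity genes lay above 0 on HFD in Cyp2b-null females in 7 of 7 cases, with a median of 0.79, and in WT females in 6 of 7, with a median of 0.40. Mpeg1, which encodes the pore-forming protein perforin-2, was at 39.8, 36.4 and 35.7 CPM in WT females on ND and 62.2, 89.5 and 59.4 CPM on HFD, without overlap (0.91 ± 0.42, unadjusted p = 0.0486). In Cyp2b-null females it was at 71.2, 35 and 27.5 CPM on ND and 57.9, 53.7 and 155 CPM on HFD, which overlapped (1.0 ± 0.41). The ND level of 71.2 CPM and the HFD level of 155 CPM each came from 1 library, and without the latter the difference was 0.33.

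Aif1, the actin-binding protein IBA1, was at 2.17, 3.14 and 3.23 CPM in Cyp2b-null females on ND and 6.65, 3.7 and 9.8 CPM on HFD, without overlap (1.23 ± 0.52). Against 2.7, 2.92 and 2.06 CPM in WT females on HFD the latter group also stood apart (1.39 ± 0.52, unadjusted p = 0.0183, adjusted p = 1). In the male table Aif1 has 4 rows and 1 count in all. Csf1r, the receptor for the growth factor that macrophages need, was at 27.8, 27.4 and 14.6 CPM in Cyp2b-null females on ND and 36.4, 29.6 and 53.2 CPM on HFD, without overlap (0.78 ± 0.35). Adgre1, which encodes F4/80, was at 8.25, 3.59 and 3.23 CPM and 11.7, 6.01 and 18.1 CPM in the same groups (1.26 ± 0.56), with 1 overlapping pair. For Cd68, a lysosomal glycoprotein, the female differences were 0.79 ± 0.51 in Cyp2b-null and 0.50 ± 0.50 in WT. Spi1 was at 2.78, 7.49 and 8.4 CPM in WT females on ND, 7.72, 11.2 and 5.77 CPM on HFD, 4.34, 5.39 and 3.64 CPM in Cyp2b-null females on ND and 5.87, 6.01 and 9.8 CPM on HFD. Only the Cyp2b-null diet groups of Spi1 did not overlap (0.70 ± 0.45), by a margin of less than 1 CPM. For Laptm5, a lysosomal membrane protein of blood cells, the female differences were 0.47 ± 0.60 in Cyp2b-null and 0.10 ± 0.68 in WT. Male Laptm5 was low, at 0.173, 0.217 and 0.513 CPM in WT on ND and 0.151, 0.584 and 1.54 CPM on HFD (1.37 ± 0.83, unadjusted p = 0.125; 0.19 without library 3 of HFD). In males the 6 identity genes with counts in every group gave differences of -0.48 to 1.37 over the 4 comparisons, and none had an unadjusted p below 0.05.

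The C1q chains start the classical complement pathway and in liver are made by macrophages. C1qa ranked first of the 33 in females per kilobase, at 49.2 CPM per kb. It was at 49.1, 25.5 and 49.5 CPM in WT females on ND and 58.3, 90.4 and 52.3 CPM on HFD, without overlap (0.69 ± 0.29, unadjusted p = 0.0317, adjusted p = 1). In Cyp2b-null females C1qa was at 44.7, 57 and 37.6 CPM on ND and 50.1, 68 and 81.8 CPM on HFD (0.52 ± 0.29). C1qc was at 40.8, 30.5 and 22.2 CPM and 47.3, 50.4 and 70.1 CPM in the same Cyp2b-null groups, without overlap (0.85 ± 0.37, unadjusted p = 0.0394). For C1qb the female diet differences were 0.44 ± 0.35 in WT and 0.49 ± 0.35 in Cyp2b-null. Between female genotypes the differences of the 3 chains were -0.01 to 0.21 over both diets.

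The male C1q chains turned on a single library. C1qa was at 22.6, 17.4 and 24.9 CPM in WT on ND and 9.5, 34 and 9.35 CPM in the labelled nulls on ND (-0.28 ± 0.42). C1qc was at 21.3, 19.8 and 25.5 CPM and 7.89, 36.1 and 11.2 CPM in the same groups (-0.26 ± 0.44). With library 2 of the labelled nulls left out, edgeR called both, at -1.23 ± 0.25 for C1qa (adjusted p = 0.0421) and -1.24 ± 0.27 for C1qc (adjusted p = 0.0423). The ND group labelled null then consists of library 3 and the divergent library, and 724 genes were called in all, against 2 with every library. With the divergent library left out instead, 0 of the 33 were called.

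Among the scavenger and pattern receptors, Folr2, a folate receptor of resident macrophages, was at 5.21, 10.3 and 5.26 CPM in Cyp2b-null females on ND and 15.7, 11.6 and 15.5 CPM on HFD, without overlap (1.04 ± 0.41, unadjusted p = 0.0213, adjusted p = 0.963). Without library 3 of that HFD group the difference was 0.98 ± 0.46. Cd163, which clears haemoglobin bound to haptoglobin, was at 9.12, 9.88 and 6.07 CPM and 13.7, 13.4 and 11.3 CPM in the same groups, without overlap (0.62 ± 0.35). It also parted the diets in males labelled Cyp2b-null, at 7.09, 11.8 and 10.7 CPM on ND and 24.2, 16.7 and 14.8 CPM on HFD (0.91 ± 0.44, unadjusted p = 0.0589, adjusted p = 0.464). In WT males Cd163 overlapped, at 8.56, 4.98 and 11.3 CPM on ND and 7.98, 10.1 and 25.7 CPM on HFD (0.82 ± 0.44; 0.11 without library 3 of HFD).

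Mrc1, the mannose receptor CD206, which sinusoidal endothelial cells also make, parted the genotypes in females on HFD. It was at 30.1, 40.4 and 33.8 CPM in WT females on HFD and 26.6, 16.2 and 27.9 CPM in Cyp2b-null females on HFD, without overlap (-0.55 ± 0.26, unadjusted p = 0.0503). The summed sinusoidal endothelial markers parted the same groups, at 240, 269 and 284 CPM in WT and 221, 230 and 189 CPM in Cyp2b-null, with 9 of 10 below 0 (median -0.28), and their part in the Mrc1 values was not tested. In males labelled Cyp2b-null it was at 11.5, 35.2 and 21.2 CPM on ND and 52.8, 36.9 and 29.8 CPM on HFD (0.81 ± 0.40). Msr1, scavenger receptor A, had differences of 0.24 ± 0.34 in WT and 0.31 ± 0.35 in Cyp2b-null females on HFD, and in males it was at 8.39, 8.77 and 8.63 CPM in WT on ND and 10.7, 14 and 9.61 CPM in the labelled nulls on ND, without overlap (0.42 ± 0.28, unadjusted p = 0.164). Cd14, the co-receptor for bacterial lipopolysaccharide, had 0 to 14 counts in female libraries and was not tested there. In males on HFD it was at 0.602, 1.17 and 0.679 CPM in WT and 0.901, 1.87 and 1.25 CPM in the labelled nulls, which overlapped (0.72 ± 0.50, unadjusted p = 0.172).

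Of the adaptors and effectors, Fcer1g had the smallest p of all members in females. This gene encodes the signalling chain shared by Fc receptors, and it was at 5.64, 7.64 and 10.1 CPM in Cyp2b-null females on ND and 11.3, 14.8 and 21.1 CPM on HFD, without overlap (1.01 ± 0.32, unadjusted p = 0.00598, adjusted p = 0.963). In WT females Fcer1g was at 8.8, 7.99 and 8.4 CPM on ND and 10.4, 11.7 and 8.66 CPM on HFD (0.29 ± 0.32). The test of the difference between these 2 diet effects gave 0.72 ± 0.45 (unadjusted p = 0.131), so they were not shown to differ. Tyrobp, the adaptor DAP12 through which Trem2 signals, had differences of 0.70 ± 0.40 in WT and 0.68 ± 0.39 in Cyp2b-null females. Ctss, the lysosomal protease cathepsin S, parted the diets in Cyp2b-null females, at 20, 24.3 and 23 CPM on ND and 34.8, 32.8 and 50.5 CPM on HFD (0.81 ± 0.45). Lyz2, lysozyme, and Cybb, the catalytic chain of the phagocyte oxidase, overlapped in each female comparison. In males no adaptor or effector had an unadjusted p below 0.05 and all 5 overlapped in the 4 comparisons.

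The recruitment genes were too low to describe in females. Itgam, the integrin CD11b, Ccr2 and Cx3cr1, the chemokine receptors of monocytes, and Ccl2, the ligand of Ccr2, had at most 9 counts in any female library, and none was tested. In males the highest levels were 1.99 CPM for Itgam, 2.82 for Ccr2, 2.27 for Cx3cr1 and 1.84 for Ccl2. The male differences with the smallest p in the group were -1.34 ± 0.67 for Cx3cr1 with diet in the labelled nulls (unadjusted p = 0.0692) and -0.99 ± 0.59 for Ccl2 between genotypes on ND (unadjusted p = 0.118). Cx3cr1 was at 0.519, 0.975 and 0.598 CPM in WT males on ND, 0.226, 1.07 and 0.634 CPM on HFD, 2.27, 0.806 and 0.523 CPM in the labelled nulls on ND and 0.619, 0.267 and 0.385 CPM on HFD. The 2.27 CPM was that of the divergent library. Ccl2 was at 1.47, 1.84 and 0.342 CPM in WT on ND, 0.527, 0.584 and 0.725 CPM on HFD, 0.401, 0.753 and 0.588 CPM in the labelled nulls on ND and 0.732, 0.891 and 0.289 CPM on HFD. Itgam was at 0.692, 0.541 and 1.03 CPM, 0.678, 1.46 and 1.22 CPM, 1.2, 1.99 and 0.785 CPM, and 1.24, 0.98 and 0.674 CPM in the same 4 groups. These 3 genes had the smallest interaction p of the list in males, at -1.0 ± 0.68 for Itgam (unadjusted p = 0.165), -1.21 ± 0.95 for Cx3cr1 (0.227) and 1.05 ± 0.84 for Ccl2 (0.235), and overlapped in all 4 comparisons.

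**Figure D4:**
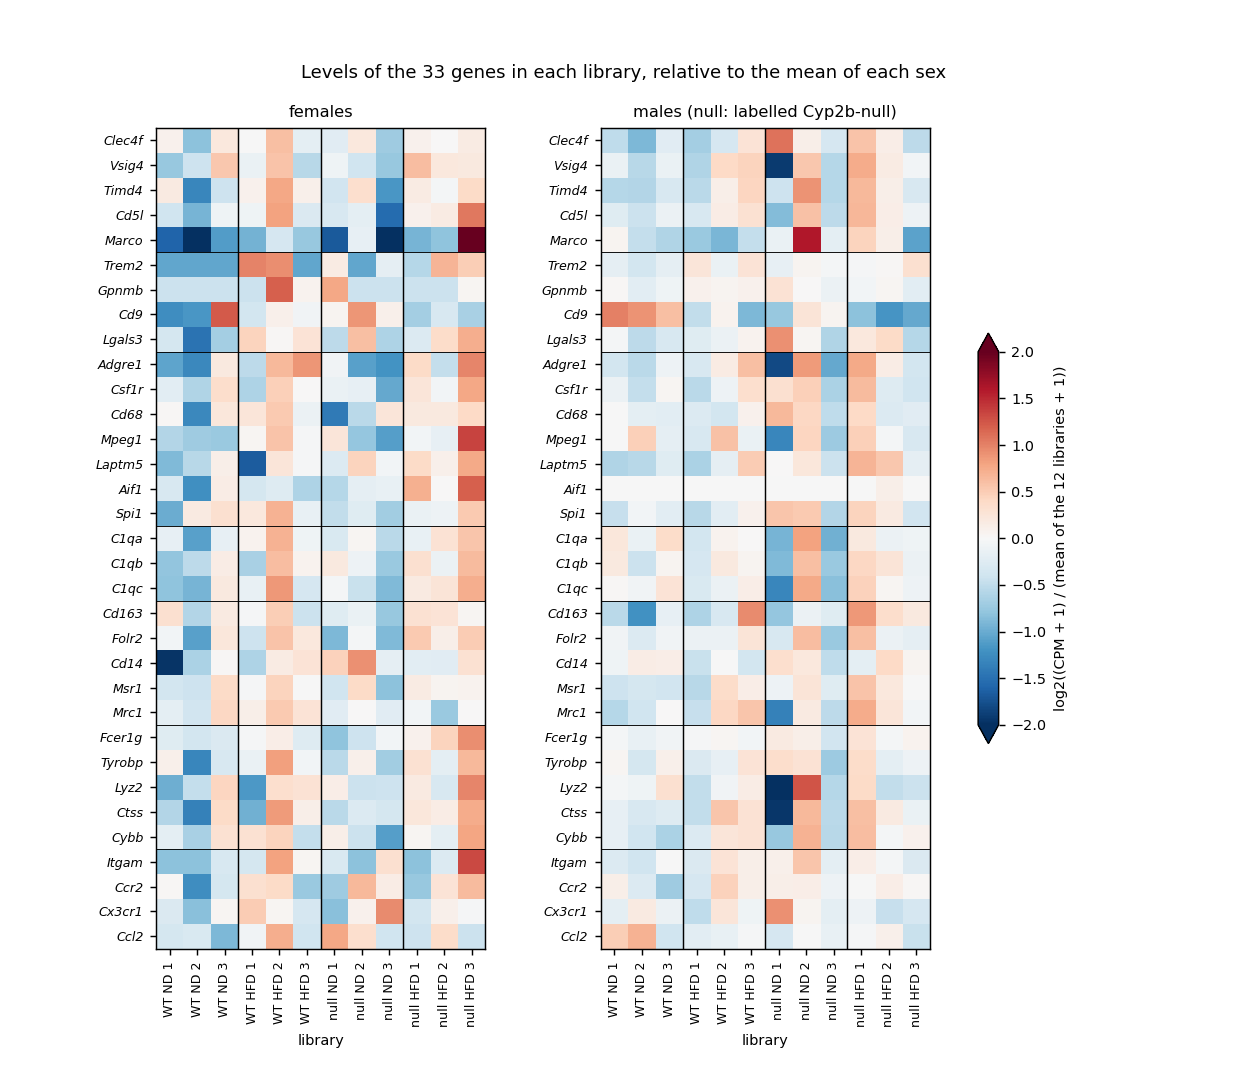
Level of each of the 33 genes (rows, by role) in each library (columns), as the log2 of CPM + 1 over the mean of the 12 libraries of the sex + 1; red is above and blue below that mean, and the scale ends at -2 and 2. Female libraries WT HFD 2 and Cyp2b-null HFD 3 are red and WT ND 2 blue across most rows, and male library null ND 2 is red and null ND 1 blue for Vsig4, Cd5l, Adgre1, Mpeg1, C1qb, C1qc, Mrc1, Lyz2, Ctss and Cybb, while Clec4f, Csf1r, Cd68, Spi1 and Tyrobp are red in both.

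Much of the variation lay between libraries of 1 group. Among females, 13 of the 33 had their highest level in library 2 of WT on HFD and another 13 in library 3 of Cyp2b-null on HFD, while library 2 of WT on ND held the lowest level of 12 of the 29 genes with a single lowest library. Leaving out library 3 of Cyp2b-null on HFD moved the median diet difference in Cyp2b-null females from 0.68 to 0.36 and the number with an unadjusted p below 0.05 from 10 to 0. With that library left out 27 of the 33 lay above 0. The same step moved the genotype median on HFD from 0.14 to -0.11, with 12 of the 33 above 0. In WT females the diet median was 0.23 without library 2 of HFD, with 26 of the 33 above 0, and 0.83 without library 3 of ND, with 33 above 0.

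In males 11 of the 33 were highest in library 2 of the labelled nulls on ND and 8 in library 1 of the labelled nulls on HFD. Leaving out the former moved the genotype median on ND from 0.16 to -0.04 and the diet median in the labelled nulls from 0.11 to 0.50. Leaving out the latter moved the genotype median on HFD from 0.15 to -0.08. Without library 3 of the labelled nulls on ND the diet median there was -0.11. The sign of the male genotype median on either diet thus turned with 1 library. Leaving out library 1 of the labelled nulls on ND gave a genotype median of 0.38.

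The divergent male library split the list. In it, 6 genes lay above the range of the other 11 male libraries (Clec4f, Gpnmb, Lgals3, Cd68, Spi1 and Cx3cr1) and 10 lay below (Vsig4, Cd5l, Adgre1, Mpeg1, C1qb, C1qc, Mrc1, Lyz2, Ctss and Cybb). The share of all genes outside that range was not counted. Over the tested genes this library was unlike the rest (median Spearman correlation 0.8002), so the 6 and 10 are not shown to be particular to the list. Clec4f was at 170 CPM against at most 119, and Vsig4 at 3.08 CPM against at least 9.18. Lyz2 was at 6.29 CPM against at least 19.2, and Ctss at 4.28 CPM against at least 12.9. Thus Clec4f and Vsig4, both resident markers, lay on opposite sides. Summed B cell and plasma cell markers were 142 CPM in this library and 5.52 to 13.7 CPM in the other 11, and dendritic cell markers 55 CPM against 15.6 to 29; their part in these values was not tested.

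**Figure D5:**
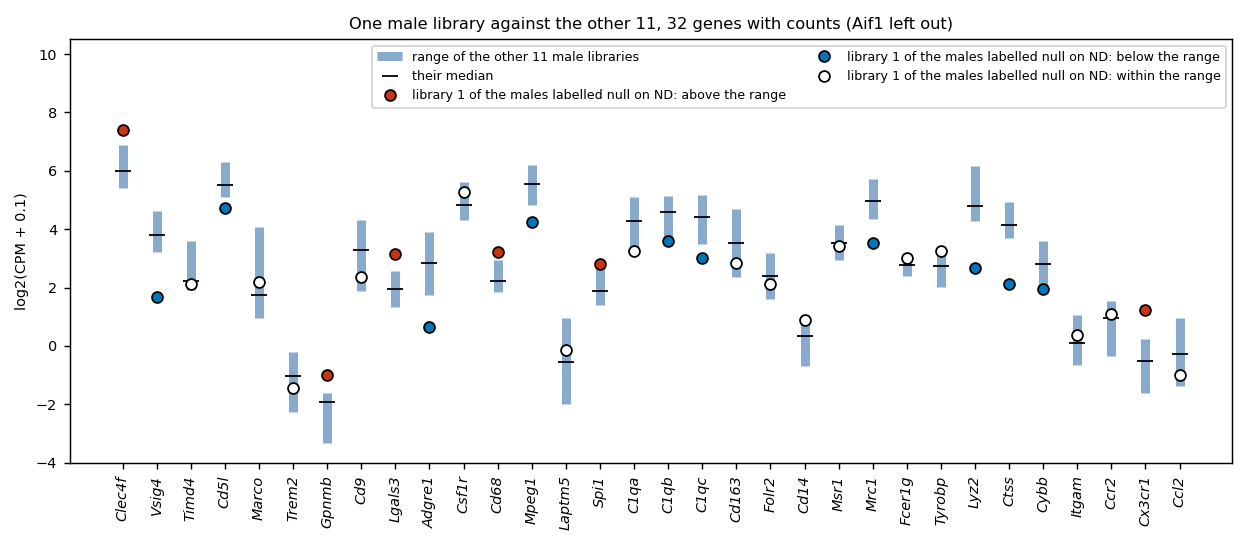
The divergent male library (points) against the range (bars) and median (ticks) of the other 11 male libraries for 32 of the 33 genes, as log2 of CPM + 0.1. Of these points 6 lie above and 10 below their bars, with Clec4f above and Vsig4 below.

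Across libraries most of the list varied with the resident markers. Deviations from group means were correlated with the mean deviation of the resident markers (leaving a resident gene out of its own mean), as a description over the 12 libraries of a sex, which share depth and scaling with each other. The median r over tested members was 0.675 in females and 0.75 in males, and 0.805 in males without the divergent library. No such median was taken over all genes, so these values are not shown to be particular to the list. Cd5l, Timd4, Adgre1 and C1qb followed most closely in males, at 0.94, 0.95, 0.92 and 0.91. Cd9 followed little, at 0.31 in males and 0.48 in females, and so did Cd14, Ccr2, Ccl2 and Cx3cr1 in males, at 0.13, 0.22, 0.34 and 0.07. Lgals3 had 0.29 in males with the divergent library and 0.64 without it, and 0.65 in females. Clec4f had 0.19 in males with the divergent library and 0.59 without it, and 0.85 in females. Outside the list, the 5 genes nearest to the resident mean among 12079 in males were Fcgr4, Adgre4, Slc16a9, Soat1 and Vcam1 (0.97, 0.95, 0.92, 0.91 and 0.91). Among 11804 in females they were Gm31940, Clec12a, Tbc1d1, Cd86 and Lgmn (0.95, 0.91, 0.90, 0.90 and 0.89).

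A further list of 81 macrophage pathway genes that are not members gave 60 tested genes in females and 67 in males, and 0 were called by edgeR in any comparison. At an unadjusted p below 0.05, the counts higher and lower were 3 and 1 for diet in WT females, 3 and 3 for diet in Cyp2b-null females, 3 and 0 between female genotypes on ND and 1 and 0 on HFD. The shares of all genes were 1.67% and 1.82%, 2.36% and 2.44%, 2.98% and 3.36%, and 0.989% and 1.45%. In males the counts were 4 and 0, 2 and 3, 9 and 1, and 0 and 1 in the same order, where the shares of all genes were 3.61% and 2.88%, 2.65% and 8.49%, 12.7% and 5.84%, and 1.41% and 0.706%. Of these the smallest p was that of Cebpb, a transcription factor of hepatocytes as well as myeloid cells, at 127, 156 and 90.7 CPM in WT females on ND and 244, 380 and 302 CPM in Cyp2b-null females on ND (1.31 ± 0.30, unadjusted p = 0.00052, adjusted p = 0.128). Fabp5, a fatty acid binding protein also found in lipid-associated macrophages, was at 17.6, 4.99 and 10.1 CPM in the same WT group and 39.9, 24.7 and 35.6 CPM in the Cyp2b-null group (1.61 ± 0.51, unadjusted p = 0.00781). Its female interaction was -2.06 ± 0.72 (unadjusted p = 0.0133, adjusted p = 1), and that of Cebpb -1.05 ± 0.42. On HFD the smallest p between female genotypes was that of Grn, progranulin, which is made by macrophages and other cells (0.45 ± 0.21). Next came Cebpa, a factor of hepatocytes and myeloid cells (0.46 ± 0.24). Only Grn had an edgeR unadjusted p below 0.05.

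Spic, the factor of red pulp and other iron-handling macrophages, was at 0.432, 0.975 and 0.342 CPM in WT males on ND and 1.74, 1.83 and 1.96 CPM in the labelled nulls on ND (1.68 ± 0.50, unadjusted p = 0.00556, adjusted p = 0.209). Mertk, a receptor for dying cells, had a difference of 0.80 ± 0.28 there. On HFD the smallest p between labelled nulls and WT were those of Fabp5 (-2.07 ± 0.90) and Csf1, the ligand of Csf1r (0.50 ± 0.27). Only Fabp5 had an edgeR unadjusted p below 0.05 there. With diet, Fcgr2b, an inhibitory Fc receptor that is also an endothelial marker, differed by 0.58 ± 0.19 in WT males (unadjusted p = 0.00925), and Spic by 1.32 ± 0.50. In the labelled nulls Cxcl10, an interferon-induced chemokine, differed by 0.90 ± 0.29 with diet (unadjusted p = 0.00946) and Fabp5 by -2.39 ± 0.90. The male interactions with the smallest p in the list were those of Cxcl10 (0.92 ± 0.41) and Cebpb (-1.26 ± 0.66). In females Cd207, the lectin langerin, was at 9.26, 3.49 and 8.82 CPM in WT on ND and 0.386, 2.5 and 0 CPM on HFD, without overlap (-2.86 ± 0.79, unadjusted p = 0.00251, adjusted p = 0.803), and the chemokine Ccl5 differed by 1.63 ± 0.62. In Cyp2b-null females Cd53, a tetraspanin of blood cells, differed by 1.23 ± 0.41 with diet (unadjusted p = 0.00925) and the chemokine Cxcl9 by 1.18 ± 0.43 (unadjusted p = 0.0151).

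Markers of other cells also parted the diets in females in part. In Cyp2b-null females the summed T and NK cell markers (13 of 15 with counts) were 5.21 to 6.07 CPM on ND and 8.22 to 11.3 CPM on HFD, without overlap, whereas the 10 sinusoidal endothelial markers lay lower on HFD, at 189 to 230 CPM against 253 to 299 CPM. Each T and NK marker was too low to test in females. Of the 13 in these Cyp2b-null groups, 9 lay above 0 and 4 below. By itself 1 lay wholly higher on HFD, where 6.18% of the genes tested did so. Stellate cell markers were 429 to 499 CPM on ND and 366 to 431 CPM on HFD. In WT females T and NK markers were 5.49 to 12.5 CPM on ND and 11.2 to 17.3 CPM on HFD, endothelial markers 206 to 353 and 240 to 284 CPM, and stellate markers 420 to 509 and 476 to 572 CPM. Of the 13 T and NK markers, 9 lay above 0 and 4 below in WT as well. There 3 lay wholly higher on HFD by themselves, where 3.89% of the genes tested did so. Neutrophil markers (5 of 8 with counts) and B cell markers (6 of 8) overlapped between the diets in both genotypes. Beside male Cd9, the summed cholangiocyte markers (6 of 7 with counts) were 50.9, 36.6 and 37.2 CPM in WT on ND and 30.7, 88.8 and 37.3 CPM on HFD. With diet, 4 of the 6 were below 0 and 1 above in WT (median -0.40), and 6 of 6 below in the labelled nulls (median -1.21). The sums in the labelled nulls were 28.8, 66.5 and 29.6 CPM on ND and 32.1, 34.6 and 38.5 CPM on HFD, which overlapped. The part of these cells in the macrophage values was not tested.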

How the data were processed

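Liver RNA libraries were read from 2 deposited tables, 1 for each sex, whose values the authors gave as raw counts by gene symbol. The submitters' processing notes name FastQC, Trimmomatic, GSNAP, Subread, edgeR and the build GRCm38.p5, without settings; strand use in counting was not given there. Symbols on several rows were summed (1806 in males, 2 in females), which touched the members Aif1 (4 rows) and Laptm5 (2 rows) in males and leaves these uncertain. Groups were taken from the titles.

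For each sex alone, edgeR 4.0.16 under R 4.3.3 fitted 12 libraries with a term for every group, using TMM factors, a filter on low counts by group and its quasi-likelihood test with robust estimation. Adjustment was by Benjamini-Hochberg over the 14873 male or 11830 female genes tested, at a threshold of 0.05, after tests of the steps on simulated data. Biological coefficients of variation came to 0.340 (male) and 0.269 (female). For members under the filter, differences come from an unfiltered fit and have no SE. Other differences given without an SE are those of tested members, from the main fit or from the alternative named beside them. Floors are 3 counts over a group and cover counting error only. Exon lengths are from GENCODE M21 (GRCm38).

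The members, lists and tests were chosen with earlier results of these data known. Library values are given by rule for the 9 resident and lipid-associated genes, for called members and for the 3 with the smallest p in each comparison; other members' values were chosen after they were seen. From the further list the 2 genes with the smallest p in each comparison were named. Alternatives tried were another scaling (RLE), no filter, DESeq2 1.42.0, a fit of only the groups compared, a replicate block, taking the first of repeated symbols, and leaving out single libraries; a term for the sides of the first female principal component was chosen after seeing the data. Same-numbered libraries deviated together in every pair only between WT ND and WT HFD. There r was 0.11 to 0.127 in males and 0.139 to 0.564 in females. The titles name no pairing, so one by number was not shown. Male libraries 1 and 2 reached 0.11 and 0.108 between genotypes on ND as well. In WT females of both diets, library 1 lay on one side of the first principal component and libraries 2 and 3 on the other. In the other comparisons r ran down to -0.446 (males, between genotypes on HFD). No 2 libraries of a group agreed within sampling noise (chi-square per degree of freedom at least 5.56).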

Additional observations from a re-analysis of the deposited data

How the results depend on the processing

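Over 2035 recomputed log2 differences of named members, 1980 stayed on the same side of the threshold and within 1 SE of the value reported, 51 moved by more than 1 SE and 4 came past the threshold; 114 differed in sign from the value reported, none of them called. The 4 were male Cd9 with diet in WT under DESeq2 and without library 1 of the labelled nulls on ND (1 member called each, of 77 and 109 genes in all against 0), and Cd5l (1.11, adjusted p = 0.0107) and Mpeg1 (1.02, adjusted p = 0.0485) with diet in Cyp2b-null females with no filter on low counts (2 members called, of 30 genes in all against 0). C1qa and C1qc, not among those named by rule, were the 2 members called between male genotypes on ND without library 2 of the labelled nulls. With single libraries left out, the median of the 33 genes ran from -0.31 (without library 1 of the labelled nulls on HFD) to 0.52 (without library 2 of the labelled nulls on ND) for the male interaction, and from -0.18 (without library 2 of WT on ND) to 0.47 (without library 3) between female genotypes on ND. The cause of these changes was not tested.

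The fit with a replicate block called 0 members in any comparison. It gave medians of 0.20 for diet in WT males and 0.58 in WT females, the groups in which every same-numbered pair deviated together. The block covered all 12 libraries of a sex, also groups in which they did not, and none was fitted to the WT groups alone. The main fit had no block, so each SE and p given for diet in WT is unpaired. The term for the sides of the first principal component moved the female diet medians to 0.51 in WT and 0.61 in Cyp2b-null, and the number of members at an unadjusted p below 0.05 in the latter from 10 to 3. At 2.01 M to 2.66 M counts per female library, 7 members were too low to test.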
